A study of Homo sapiens with 6 samples.

Results

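Complement is a set of plasma and membrane proteins that tags cells for removal and can pierce them. The classical, lectin and alternative pathways meet at the cleavage of C3, and the terminal pathway then assembles a pore in the target membrane. Nucleated human cells hold this cascade back with membrane regulators, among them CD46, CD55 and CD59, and tumour cells of epithelial origin commonly carry them.

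The expression of 9 genes of this system was examined in MDA-MB-453 cells, namely the components C3, C4A, C4B, CFB and C1S, the soluble regulator CFI, and the membrane regulators CD46, CD55 and CD59. They were taken by name from the deposited count table, which lists 33451 genes, and all 9 were found there. MDA-MB-453, an established line of human breast cancer cells, was grown for 5 days in 100 nM 25(OH)D, the main circulating form of vitamin D, or in its solvent, alcohol (control), and 3 libraries were sequenced from each group. Medium with bovine serum and antibiotics was common to both groups, and all libraries came from a single line. The study's methods call the libraries of a group biological replicates, whereas the labels only number them. If they came from one culture, the p-values would measure technical spread alone.

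The libraries held between 33268860 and 40928176 counts, so that 3 counts, taken as the floor of detection, were worth 0.0720 to 0.0921 CPM (counts scaled to a common library size, with TMM factors). The summed CPM of 5 markers of the line (KRT8, KRT18, EPCAM, FOXA1 and ERBB2) was 3144 to 3236 in the control libraries and 3431 to 3477 in the 25(OH)D libraries. This sum covers opposite directions, since FOXA1 was called lower and 3 of the others higher (adjusted p under 0.05, edgeR). Of the 5 macrophage markers none passed the low-count filter, and their summed CPM was 0.380 to 0.600 and 0.246 to 0.572. The 4 hepatocyte markers summed to 0.652 to 0.817 and 0.398 to 0.890 CPM. The 5 fibroblast markers summed to 36.5 to 39.0 and 32.0 to 34.7 CPM, almost wholly from COL1A1. The endothelial markers PECAM1 and VWF together stayed at or below 0.489 CPM in every library, and CDH5 was not listed. Mitochondrial genes took 7.85% to 7.99% of the control counts and 8.89% to 9.24% of the 25(OH)D counts. The part of this difference in the results was not tested.

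Near-identical sequence decides how far the 2 genes for complement C4 can be separated, and their sequences are therefore shown first. C4A and C4B, the scaffold proteins of the classical and lectin convertase, lie on chromosome 6 at chr6:31982024-32002681 and chr6:32014762-32035418 (GRCh38, plus strand). Of 5427 aligned bases between their GENCODE 29 transcripts, 13 differed, an identity of 99.8%. Of all stretches of 100 bases, 90.6% of those in C4A and 86.5% of those in C4B were also found in the other gene. The study's methods give paired reads longer than 100 bases, so the share of reads that match both may be lower. The richest window of 60 bases, in exon 26 of both transcripts, held 5 of the differing bases, which are printed in capitals (GRCh38, plus strand, chr6:31996052-31996111 for C4A and chr6:32028790-32028849 for C4B).
C4A: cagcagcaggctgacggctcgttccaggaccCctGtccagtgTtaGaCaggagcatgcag
C4B: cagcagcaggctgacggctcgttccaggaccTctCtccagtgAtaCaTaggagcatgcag
A read that covers none of the differing bases cannot be assigned to one of the pair by its sequence. The split between C4A and C4B is therefore uncertain, and their sum is given as well. How reads that match both genes were counted is not given in the sources used here. If they were left out, the levels of both genes and of their sum would be too low.

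The promoters of the membrane regulators are printed because these are the members whose transcript levels differed between the groups. RefSeq windows on GRCh38.p14, from 250 bases before to 50 bases after the annotated start, matched 5 of the 9 members (CD46, CD55, CD59, CFB and CFI), and only bases before the first exon of the count table are shown. The stretches lie at chr1:207751788-207752037 for CD46 (plus strand), chr11:33736480-33736729 for CD59 (minus strand) and chr1:207321428-207321507 for CD55 (plus strand), each written 5′ to 3′. Capitals mark matches, on either strand, to any of 7 motifs. They were the GC box GGGCGG, the TATA box, spelled TATAAA, and the CCAAT box. Half-sites bound by the vitamin D receptor were searched as AGGTCA and, in a second form of the same element, as GGTTCA. The interferon-gamma activated site was searched as TTCNNNGAA, and the core of the interferon-stimulated response element as GAAA, any 2 bases and GAAA again.
CD46: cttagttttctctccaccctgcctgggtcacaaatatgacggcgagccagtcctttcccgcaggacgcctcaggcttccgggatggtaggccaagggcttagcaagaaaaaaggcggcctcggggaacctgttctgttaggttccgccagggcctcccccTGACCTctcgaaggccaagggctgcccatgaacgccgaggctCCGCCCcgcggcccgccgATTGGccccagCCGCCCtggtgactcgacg
CD59: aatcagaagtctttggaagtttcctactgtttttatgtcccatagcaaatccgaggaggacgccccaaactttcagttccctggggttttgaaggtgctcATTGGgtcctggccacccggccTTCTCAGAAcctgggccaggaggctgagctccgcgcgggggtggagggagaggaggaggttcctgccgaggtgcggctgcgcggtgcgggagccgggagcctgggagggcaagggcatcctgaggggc
CD55: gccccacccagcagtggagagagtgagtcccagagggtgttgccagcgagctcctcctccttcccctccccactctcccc
The CD46 stretch held 2 GC boxes, 1 CCAAT box and 1 AGGTCA half-site. The CD59 stretch held 1 CCAAT box and 1 interferon-gamma activated site, and none of the motifs occurred in the 80 bases shown for CD55. No matches overlapped. These motifs are common: of 27305 promoter windows of 300 bases, 44.5% held the GC box, 35.7% the CCAAT box, 14.0% AGGTCA, 8.70% GGTTCA, 12.0% the TATA box, 7.88% the interferon-gamma activated site and 3.66% the response element core. In their whole windows, CD46 held 3 GC boxes, CD59 held 2 and CD55 held 1, counting those outside the printed stretches. CFB held 1 TATA box, 1 interferon-gamma activated site and 1 response element core, and CFI held 1 CCAAT box. A match is a description of letters and was not tested for binding.

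To see how 25(OH)D bears on the complement genes of these cells, the libraries of the 2 groups were compared. The membrane regulators CD46 and CD59 rose about 1.52-fold and 1.51-fold, and CD55 fell to 0.754 of its control level. C1S, C4A, C4B and CFB had low counts and did not pass the test, and C3 and CFI were near the floor. Of the 9 members, 7 passed the low-count filter of edgeR (C3 and CFI did not), 2 were called higher and 1 lower by the quasi-likelihood test of edgeR (adjusted p under 0.05, Benjamini-Hochberg over 18183 genes). Among all genes tested, 33.8% were called, 17.3% as higher and 16.5% as lower, so calls were common in this comparison. None of the members passed the fold limit that the study used for its volcano plot (absolute log2 fold change over 1 and unadjusted p under 0.05), which 6.65% of all genes passed. DESeq2 and limma placed 0 members past it as well, and 3 members had an unadjusted p under 0.05. The 3 members called were also those whose groups did not overlap, and 45.7% of all genes tested did not overlap.

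Compared per length, in RPKM (counts scaled to gene length and library total), the members formed the same order in both groups. CD46 was at 39.8 ± 0.676 RPKM in control and 58.7 ± 1.73 RPKM in 25(OH)D (SD, n = 3), above 93.6% of the genes tested by its control level. CD59 followed with 6.32 ± 0.155 and 9.25 ± 0.828 RPKM, and CD55 with 3.03 ± 0.0187 and 2.22 ± 0.0507 RPKM. In these counts the membrane regulators thus stood above every component, with the limit stated for C4A and C4B. C1S had mean levels of 0.607 and 0.565 RPKM, C4B of 0.163 and 0.205 RPKM, and CFB of 0.105 and 0.155 RPKM. C4A had 0.0810 and 0.0924 RPKM, C3 0.0190 and 0.0283 RPKM, and CFI 0.0116 and 0.00480 RPKM. From CD46 down to C4B, neighbours in this order did not overlap in either group, nor did C4A and C3. C4B and CFB, CFB and C4A, and C3 and CFI overlapped in both groups, so their order is not resolved by these libraries.

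**Figure D1:**
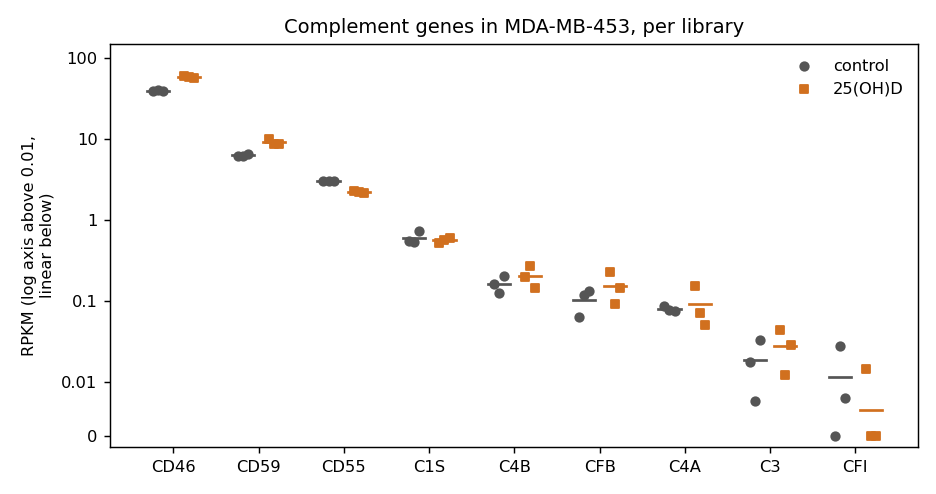
RPKM of the 9 members in control and 25(OH)D, on an axis that is logarithmic above 0.01 and linear below it, with 1 point per library and a line at the group mean. CD46 lies highest, at 39.3 to 60.3 RPKM, and the components C4A, C4B, CFB, C3 and CFI lie below 0.3 RPKM in every library.

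CD46, or membrane cofactor protein, serves as cofactor for the cleavage of C3b and C4b by factor I. Its gene lies at chr1:207752057-207795513 on the plus strand (GRCh38) and shares no exon bases with another gene of the table. The control libraries had 13998, 13137 and 12580 counts, which were 336.2, 347.3 and 341.7 CPM. The 25(OH)D libraries had 18821, 19907 and 16483 counts, or 535.4, 517.8 and 505.8 CPM. Every 25(OH)D library was above every control library, and the spread within a group was small beside the gap. The log2 fold change was 0.60 (SE 0.0361, 95% interval 0.53 to 0.68; adjusted p = 1.04e-08, edgeR). This was the smallest p among the members. It ranged from 0.59 to 0.64 when each library was omitted.

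CD59, or protectin, blocks the assembly of the terminal pore and is held in the membrane by a glycosylphosphatidylinositol (GPI) anchor. It lies at chr11:33698261-33736445 on the minus strand and shares 254 of its exon bases (5.14%) with C11orf91. The control libraries had 1263, 1141 and 1171 counts, or 30.3, 30.2 and 31.8 CPM. The 25(OH)D libraries had 1806, 1693 and 1431 counts, or 51.4, 44.0 and 43.9 CPM. The groups did not overlap, and the first 25(OH)D library stood above the other two. The log2 fold change was 0.59 (SE 0.0694, 95% interval 0.44 to 0.74; adjusted p = 1.12e-05, edgeR). It ranged from 0.52 to 0.64 as libraries were left out, with an adjusted p of at most 0.00175 over all alternatives.

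CD55, or decay-accelerating factor, is also GPI-anchored and speeds the decay of the C3 and C5 convertases. It lies at chr1:207321508-207386804 on the plus strand, in the same cluster of complement regulators as CD46, and shares no exon bases with another gene. The control libraries had 695, 628 and 612 counts, or 16.7, 16.6 and 16.6 CPM. The 25(OH)D libraries had 452, 480 and 401 counts, or 12.9, 12.5 and 12.3 CPM. CD55 was thus lower in every 25(OH)D library, the opposite of CD46. The log2 fold change was -0.41 (SE 0.0762, 95% interval -0.57 to -0.24; adjusted p = 7.90e-04, edgeR). In libraries made from whole cultures, fewer cells that express a gene and less RNA per cell cannot be told apart.

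**Figure D2:**
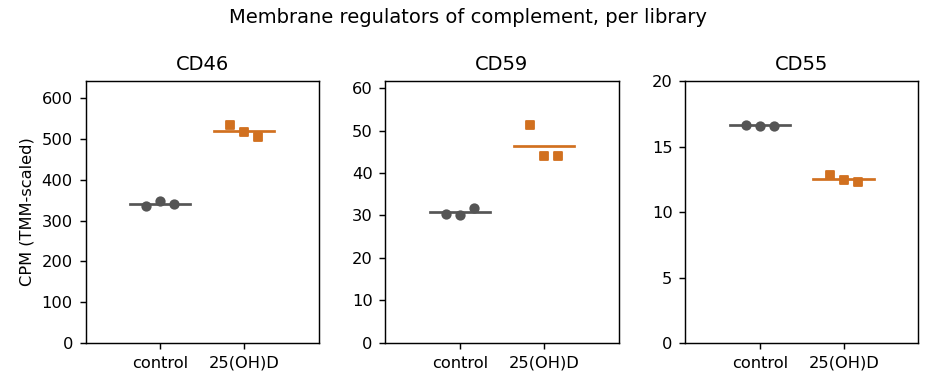
TMM-scaled CPM of CD46, CD59 and CD55 on linear axes from 0, with 1 point per library and a line at the group mean. The 25(OH)D libraries lie above control for CD46 (505.8 to 535.4 against 336.2 to 347.3) and CD59, and below control for CD55 (12.3 to 12.9 against 16.6 to 16.7).

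The balance among the 3 membrane regulators was compared within each library, as the share of each in their summed RPKM, which does not depend on the scaling of libraries. CD46 made up 80.9%, 81.4% and 80.6% of the sum in control and 82.9%, 84.2% and 84.0% in 25(OH)D. CD55 made up 6.28%, 6.09% and 6.14% in control and 3.11%, 3.18% and 3.19% in 25(OH)D. For both genes the groups did not overlap, and the two-sided exact permutation test gave p = 0.1, the smallest that 3 libraries against 3 allow. CD59 made up 12.9%, 12.5% and 13.2% in control and 14.0%, 12.6% and 12.8% in 25(OH)D. These shares overlapped, with a difference of 0.309 percentage points (exact permutation p = 0.7) that was -0.118 points without the first 25(OH)D library. The sum itself was 49.2 ± 0.625 RPKM in control and 70.2 ± 2.51 RPKM in 25(OH)D (SD, n = 3; exact permutation p = 0.1). The mean RPKM of CD59 was 2.08 times that of CD55 in control and 4.17 times in 25(OH)D, while CD46 exceeded CD59 6.30-fold and 6.35-fold.

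**Figure D3:**
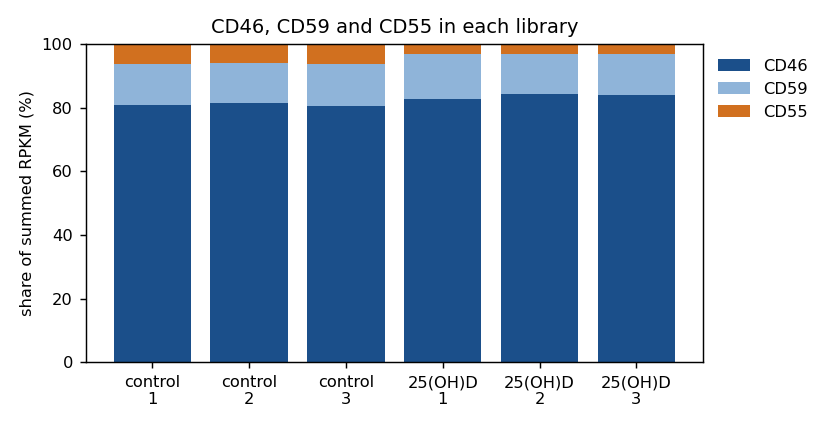
Share of CD46, CD59 and CD55 in their summed RPKM, in percent, with 1 stacked bar per library. CD55 takes 6.09% to 6.28% of the sum in the control libraries and 3.11% to 3.19% in the 25(OH)D libraries, and CD46 takes most of it throughout.

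Of the components among the members, C1S, the protease of the first classical complex that cleaves C4 and C2, had the highest level as counted. Its place above C4A and C4B is uncertain if reads that match both C4 genes were left out. It lies at chr12:6988259-7071032 on the plus strand and shares 229 exon bases (3.54%) with another gene of that strand. Its libraries had 148, 129 and 171 counts in control and 122, 141 and 130 in 25(OH)D, or 3.87 ± 0.675 and 3.71 ± 0.262 CPM (SD, n = 3). The groups overlapped, and the log2 fold change was -0.060 (95% interval -0.41 to 0.29; adjusted p = 0.813, edgeR). A change of 0.753 to 1.22 times the control level remained within this interval, and the estimate was 0.096 without the third control library.

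C4A had 26, 21 and 20 counts in control and 40, 20 and 12 in 25(OH)D, where the first library lay above and the last below every control library. Its log2 fold change was 0.23 (95% interval -0.69 to 1.15; adjusted p = 0.721, edgeR), and it was -0.36 without the first 25(OH)D library. C4B had 47, 33 and 53 counts in control and 50, 76 and 34 in 25(OH)D. The groups overlapped, with a log2 fold change of 0.38 (95% interval -0.26 to 1.01; adjusted p = 0.362, edgeR). The sum of C4A and C4B was 73, 54 and 73 counts in control and 90, 96 and 46 in 25(OH)D. It does not depend on how reads were split within the pair, but would miss reads left out for matching both. Its log2 fold change was 0.33 (SE 0.251, adjusted p = 0.345, edgeR). C4A shared 303 exon bases (4.21%) with STK19 on the same strand, and C4B shared 520 (7.31%) with C4B-AS1 on the opposite strand. C4B-AS1 had 14, 17 and 17 counts in control and 46, 31 and 19 in 25(OH)D, and rose by a log2 fold change of 1.11 (adjusted p = 0.0435, edgeR). The library kit keeps strand, but the strand setting of the read counting is not given in the sources used here, so reads of this antisense gene and of C4B may not be separated.

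CFB, or factor B, supplies the protease of the alternative pathway convertase. It lies at chr6:31945650-31952084 on the plus strand and had 13, 22 and 24 counts in control and 41, 18 and 24 in 25(OH)D. The groups overlapped, with 1 high library in 25(OH)D, and the log2 fold change was 0.62 (95% interval -0.30 to 1.54; adjusted p = 0.299, edgeR). The estimate was of the size of that of CD46, but its interval also covers no change. Over the alternatives it ranged from 0.064 to 0.90. Of its 4997 exon bases, 2249 (45.0%) were shared with a gene of the same strand that spans C2 and CFB, listed as XXbac-BPG116M5.17, with 40, 64 and 61 counts in control and 71, 50 and 50 in 25(OH)D. Reads over these bases cannot be assigned to one of the pair by position and may have been counted for both.

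C3, the protein at which the pathways meet, had 6, 2 and 10 counts in control and 13, 4 and 8 in 25(OH)D (chr19:6677704-6730562, minus strand). CFI, or factor I, the protease that inactivates C3b and C4b, had 0, 4 and 1 counts in control and 2, 0 and 0 in 25(OH)D (chr4:109740694-109802179, minus strand). Neither passed the low-count filter, and a difference between the groups was not detectable at this depth. CFI was at or below the floor of 3 counts in all libraries but 1, so no fold is given for it.

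The wider complement genes, 49 in a fixed list of other components, regulators and receptors, were mostly at few or no counts. The table lists 39 of them, 25 of which had at most 10 counts in every library, and 12 passed the filter. Among all genes tested, 16.5% were called lower and 17.3% higher by edgeR's quasi-likelihood test. Of these 12, 3 were lower (CFD, C5 and CLU), 0 were higher and 9 were not called. None was higher at an unadjusted p under 0.05 either, and DESeq2 and limma called 0 higher. The median log2 fold change of the 12 was -0.34, against -0.011 over all genes tested.

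CFD, or factor D, the protease that activates factor B, had 62, 66 and 58 counts in control and 9, 27 and 21 in 25(OH)D. Its level was 1.60 ± 0.130 CPM in control and 0.534 ± 0.243 CPM in 25(OH)D (SD, n = 3), without overlap, and it fell by 1.58 on the log2 scale (SE 0.339, adjusted p = 0.00226, edgeR). CFD was the single gene of this list past the fold limit. C5, from which the terminal pathway starts, had 5.62, 7.69 and 6.79 CPM in control and 4.86, 3.98 and 4.30 CPM in 25(OH)D, and fell by 0.61 on the log2 scale (SE 0.145, adjusted p = 0.00445, edgeR). CLU, or clusterin, a secreted chaperone that restrains the terminal complex, was the most abundant of the 3. It had 237.5, 232.0 and 246.9 CPM in control and 166.5, 156.2 and 187.2 CPM in 25(OH)D, and fell by 0.49 on the log2 scale (SE 0.0566, adjusted p = 9.92e-06, edgeR). Soluble CLU and membrane-bound CD59 both act on the terminal pathway, and their transcripts moved in opposite directions.

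The other 9 tested genes had wide intervals. C1R, the partner protease of C1S, had 42, 28 and 32 counts in control and 6, 24 and 24 in 25(OH)D, with a log2 fold change of -0.78 (95% interval -1.72 to 0.17; adjusted p = 0.201, edgeR). Its groups did not overlap, but the first 25(OH)D library was far below the other two. SERPING1, the inhibitor of C1R and C1S, had 10, 10 and 6 counts in control and 14, 12 and 20 in 25(OH)D, with a log2 fold change of 0.96 (95% interval -0.063 to 1.99; adjusted p = 0.143, edgeR). The groups of SERPING1 did not overlap either, as was so for 45.7% of all genes tested. The remaining log2 fold changes were -0.36 for C2, 0.22 for MASP2, -0.32 for CFP, -0.22 for C8G, -0.41 for VTN, -0.33 for SUSD4 and -0.091 for ITGB2, with adjusted p between 0.281 and 0.902 (edgeR). The values of C2 carry the same limit as those of CFB, since 32.9% of its exon bases were shared with XXbac-BPG116M5.17.

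**Figure D4:**
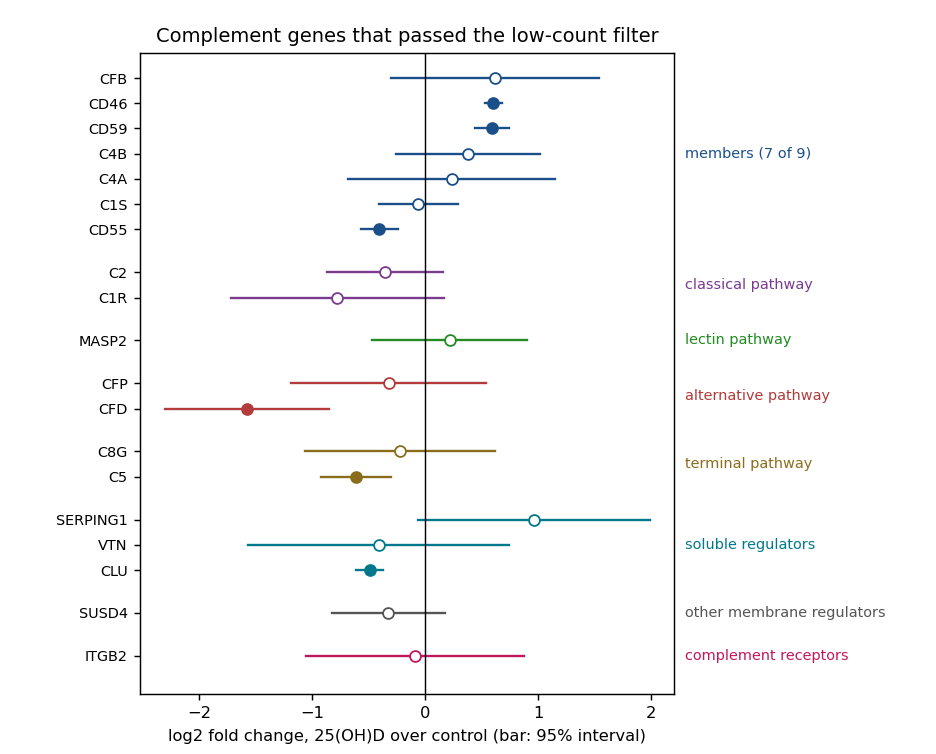
Log2 fold change (25(OH)D over control) of the complement genes that passed the low-count filter, with 95% intervals, grouped by pathway. Filled points have an adjusted p under 0.05 (edgeR), namely CD46 and CD59 above 0 and CD55, CFD, C5 and CLU below 0, and open points do not.

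Since CD55 and CD59 reach the membrane on a GPI anchor, the genes that build and attach this anchor were described next. All 23 passed the filter, with a median log2 fold change of 0.037. By edgeR's quasi-likelihood test 4 were higher, 2 lower and 17 not called, against 17.3% higher and 16.5% lower among all genes tested. PIGX, a subunit of the first mannosyltransferase, rose from 36.1 ± 0.268 to 67.9 ± 2.86 CPM (SD, n = 3; log2 fold change 0.91, adjusted p = 8.63e-09). PIGT, a subunit of the transamidase that joins the anchor to the protein, rose from 55.7 ± 1.25 to 83.4 ± 4.38 CPM (log2 fold change 0.58, adjusted p = 7.66e-07). DPM2, a subunit of the synthase of the mannose donor, and PIGK, the catalytic subunit of the transamidase, rose by 0.44 and 0.29 on the log2 scale (adjusted p = 0.00173 and 0.00849, edgeR), and PIGK lost its call under both limma settings (adjusted p = 0.0680 and 0.0638). PIGW, the inositol acyltransferase, fell by 0.51 on the log2 scale (adjusted p = 0.00337, edgeR). DPM2 and PIGW shared 19.2% and 20.8% of their exon bases with opposite-strand genes, RP11-203J24.8 and MYO19. All 217 exon bases of PIGY were shared with PYURF on the same strand, so PIGY was not measured apart from it. PIGC fell by 0.31 with an adjusted p of 0.0402, a call that was lost under 8 of the alternatives. CD55 and CD59, which share this pathway, moved in opposite directions.

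Complement genes are known to be induced through certain transcription factors and cytokine receptors, and these were described as lists too. Of 11 tested factors, 4 were higher and 2 lower (SP1 by -0.22 and CEBPA by -0.49 on the log2 scale), with a median log2 fold change of -0.041. Among all genes tested, 17.3% were called higher and 16.5% lower. VDR, the vitamin D receptor, rose from 80.8 ± 0.739 to 133.5 ± 6.16 CPM (SD, n = 3; log2 fold change 0.72, adjusted p = 1.94e-08, edgeR). STAT3, which carries the interleukin 6 signal, rose from 31.6 ± 1.62 to 40.4 ± 1.16 CPM (log2 fold change 0.35, adjusted p = 4.28e-04, edgeR). CEBPB and CEBPD were also called higher, by 0.78 and 1.23 on the log2 scale. The calls of CEBPB and CEBPD did not hold under many of the alternatives. Both were lost without the third control library (adjusted p = 0.0636 and 0.0779, edgeR) and without the third 25(OH)D library (adjusted p = 0.114 and 0.0896), and over all alternatives the adjusted p reached 0.184 and 0.0896. CEBPB was also lost without the second control library, under the replicate block (adjusted p = 0.0515, edgeR), under DESeq2 and under both limma settings, and CEBPD was lost without any 1 of the 25(OH)D libraries and under limma on log2(RPKM + 0.1). CEBPA lost its call without the first library of either group (adjusted p = 0.0532 and 0.0538, edgeR) and under both limma settings (adjusted p = 0.0537 and 0.0502). CEBPA shared 25.0% and 18.3% of its exon bases with opposite-strand genes, CTD-2540B15.11 and CTD-2540B15.7. CTD-2540B15.11 was also called lower (log2 fold change -0.66, adjusted p = 0.00963, edgeR). CEBPB shared 11.8% with CEBPB-AS1 on the opposite strand. As the strand setting of the read counting is not given, reads of these genes may not be separated.

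Of 8 tested cytokine receptor genes, 3 were higher and 2 lower, against 17.3% higher and 16.5% lower among all genes tested. IL1R1, the signalling receptor of interleukin 1, fell from 391.9 ± 9.06 to 131.2 ± 3.41 CPM (log2 fold change -1.58, adjusted p = 6.56e-13, edgeR). IFNGR1, the ligand-binding chain of the interferon-gamma receptor, rose from 23.3 ± 0.477 to 35.5 ± 2.58 CPM (log2 fold change 0.61, adjusted p = 7.92e-06, edgeR). OSMR, the oncostatin M receptor, fell by 0.82 on the log2 scale (adjusted p = 0.00773, edgeR). IL6ST and IL1RAP had log2 fold changes of 0.62 and 0.36 with adjusted p of 0.0492 and 0.0484 (edgeR), at the edge of the threshold. Both calls were lost under DESeq2, both limma settings, upper-quartile scaling and library totals alone, and without the first control library or the third 25(OH)D library, so that 1 higher receptor gene was left.

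**Figure D5:**
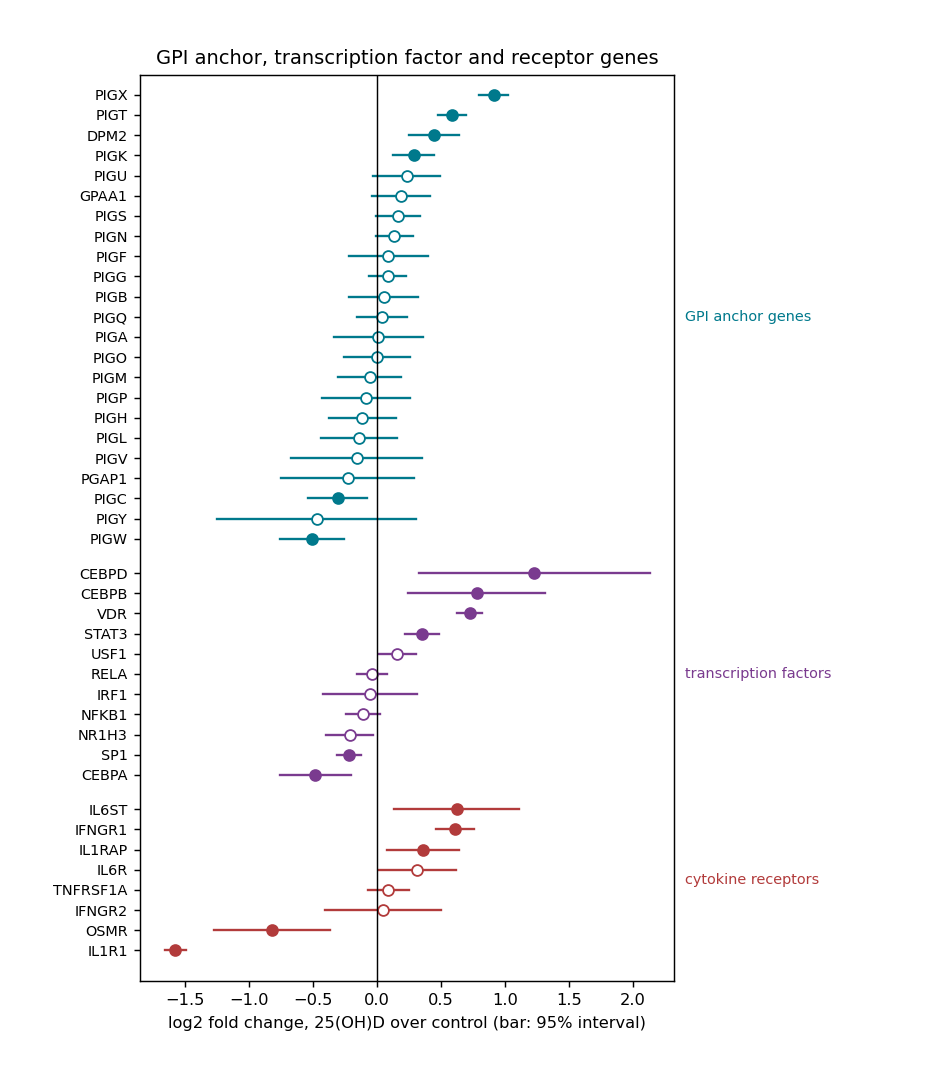
Log2 fold change (25(OH)D over control) with 95% intervals for the GPI anchor genes, the transcription factors and the cytokine receptors that passed the filter. Filled points have an adjusted p under 0.05 (edgeR), with PIGX, VDR and IFNGR1 among the higher genes and IL1R1, at -1.58, furthest below 0.

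The genes most like CD46 across the 6 libraries, by Pearson's r of log2(CPM + 0.1), were TC2N (r = 0.9997), AQR (r = 0.9996) and GRIN1 (r = 0.9995). Their log2 fold changes were 0.39, 0.77 and 0.46. This is a description over libraries that fall into 2 groups, and 374 genes had an r over 0.99.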

How the data were processed

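The authors deposited raw counts per gene, as whole numbers, and RPKM values, which equalled the counts divided by gene length and library total (largest relative difference 2.23e-13). The submitters' processing notes name Trimmomatic 0.36, featureCounts of Subread 1.5.1, edgeR 3.12.1 and GRCh38, and the aligner is not given in the sources used here. In every library 66.8% to 69.8% of the counts from 1 to 10 were even, so whether mates were counted singly is unknown and low counts may stand for fewer fragments. Counts were fitted in R 4.3.3 with edgeR 4.0.16 (TMM, filterByExpr with a minimum count of 10, quasi-likelihood test without covariates, Benjamini-Hochberg adjustment over 18183 genes). The main edgeR fit, DESeq2 and limma on log2(RPKM + 0.1) were run on simulated data, in which genes of low mean CPM were left unchanged. Changes at low counts, the other fits and the permutation tests were not checked in this way. The biological coefficient of variation was 0.0788. Counts of replicates differed by more than sampling noise (chi-square per gene 3.85 to 11.2). DESeq2 1.42.0 and limma 3.58.1 on log2(RPKM + 1) or log2(RPKM + 0.1) were alternatives, as were other scalings, no filter, the replicate number as a block, and the omission of each library. Shares were compared by two-sided exact permutation tests with Python 3.11.15 and scipy 1.17.1. C4 transcripts came from GENCODE 29 and promoters from RefSeq. The rule named all members, the up to 3 genes with the smallest p in each complement list, the up to 2 in the GPI anchor, transcription factor and receptor lists, and 3 genes like CD46. Other genes called in the last 3 lists, C4B-AS1, XXbac-BPG116M5.17 and CTD-2540B15.11 were named after their values were seen. Some genes of these lists are not reported here. The members and lists were chosen with earlier results of these data known. Intervals at low counts cover the spread between these libraries.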

Additional observations from a re-analysis of the deposited data

How the results depend on the processing

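CD46, CD59 and CD55 kept their direction and their call under all 15 alternatives run for each, with log2 fold changes of 0.55 to 0.64, 0.48 to 0.64 and -0.45 to -0.33, and adjusted p of at most 0.00515. The counts of members called, of members past the fold limit and of wider complement genes called did not move by over 1.5 times under any alternative. The log2 fold changes of CFB (0.064 to 0.90) and C4B (0.050 to 0.58) stayed above 0 without a call. C3 passed the filter or was fitted without it under 6 alternatives (0.21 to 0.98, adjusted p 0.350 to 0.865, edgeR and DESeq2), and CFI, fitted under 2, was not called (adjusted p 0.764). As libraries were left out, log2 fold changes ranged from -0.36 (without the first 25(OH)D library) to 0.53 for C4A, from -0.14 to 0.096 for C1S and -0.76 to 0.19 for VTN (both highest without the third control library), and from -0.025 to 0.57 for MASP2 and -0.37 to 0.027 for C8G (both crossing 0 without the third 25(OH)D library). The difference in the CD59 share ranged from -0.118 percentage points, without the first 25(OH)D library, to 0.579. SUSD4 was at -0.64 without the second 25(OH)D library and was then called (adjusted p = 0.0483, edgeR), which made 4 lower wider complement genes. The lower GPI anchor genes numbered 1 under DESeq2, both limma settings and the replicate block, and 1 to 2 as libraries were left out, since PIGC lost its call. The higher transcription factors numbered 2 under limma on log2(RPKM + 0.1) and 2 to 4 as libraries were left out, and the lower ones 1 to 2. The higher cytokine receptors numbered 1 under upper-quartile factors, library totals alone, DESeq2 and both limma settings, and 1 to 2 as libraries were left out. With the replicate number as a block the log2 fold changes of CD46, CD59 and CD55 were 0.60, 0.59 and -0.41, and no member's call changed. Libraries of the same number correlated at -0.072, -0.012 and -0.046 in their deviations from the group means, and those of different number at -0.016 to 0.063. Such values cannot decide whether libraries of the same number were grown or processed together, and the labels do not say. The cause of the shifts between alternatives was not tested. The median log2 fold change of all genes was between -0.055 and -0.0050 under the other scalings. Depth limits C3, CFI and most other components.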

Other observations

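Some proteins known to bind or process the membrane regulators and complement proteins were looked at after the members' values were seen, 7 genes in all. ADGRE5, which encodes CD97, an adhesion receptor that binds CD55, had 0.673, 0.291 and 0.109 CPM in the control libraries and 5.38, 4.40 and 4.60 CPM in the 25(OH)D libraries. The groups did not overlap, and ADGRE5 rose by a log2 fold change of 3.69 (SE 0.343, adjusted p = 1.13e-06, edgeR's quasi-likelihood test), while CD55 fell. Leaving out libraries and the other alternatives gave 0.81 to 4.56, the lowest on a log2(RPKM + pseudocount) scale that compresses low genes. FURIN, a protease that cleaves pro-proteins, fell from 14.2 to 6.43 CPM (log2 fold change -1.14, adjusted p = 4.14e-07, edgeR), and CTSL, a lysosomal protease that can cleave C3 inside cells, rose from 17.8 to 28.3 CPM (log2 fold change 0.67, adjusted p = 4.34e-05, edgeR). CALR, a chaperone that binds C1q, rose by 0.15 on the log2 scale and LRP1, an endocytic receptor, fell by 0.42 (adjusted p = 0.00169 and 0.0179, edgeR). JAG1, a ligand that binds CD46, and C1QBP had log2 fold changes of 0.16 and -0.14 (adjusted p = 0.208 and 0.0603, edgeR). The call of LRP1 was lost without the first control library, without the first or the second 25(OH)D library and under limma.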
